A study of Mus musculus with 45 samples.

Results

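Purkinje cell identity and signaling genes are the 34 mouse genes of a named list, each followed through 3 deposited lists of CIC peaks in the cerebellum. A gene was counted as having a peak in a list when a peak summit lay in its GRCm38 gene body or within 5 kb upstream of it. All 34 genes had a gene model among 21938 protein-coding genes. CUT&RUN, a method in which a nuclease tethered by an antibody cuts free the DNA around the protein of interest, was carried out on whole cerebella of C57BL/6 mice at 10 weeks of age with a CIC, an H3K27ac or an IgG antibody. The 15 animals, which gave 45 samples, were WT mice (n = 4), Atxn1 154Q/2Q mice with a polyglutamine-expanded allele opposite a normal one (154Q, n = 4), Atxn1 154Q[V591A;S602D]/2Q mice (n = 3) and Engrailed1-Cre;Cic fl/fl mice (CIC KO, n = 4). V591A and S602D are amino acid changes in the expanded ATXN1 introduced to prevent its interaction with CIC. The authors merged the CIC libraries of each genotype and called peaks over the merged CIC KO libraries, so each of WT, 154Q and 154Q[V591A;S602D] is represented by 1 list. The WT list was taken as such from its name and the methods of the study, because the labels name it beside the CIC KO samples and not the WT samples.

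Those lists are single observations with no spread between animals, and no test over animals was possible from them. All 3 lists share the CIC KO control, in which Cic is removed in cells of the Engrailed1 lineage. The lists held 4588, 1690 and 918 peaks on the assembled chromosomes in WT, 154Q and 154Q[V591A;S602D], with 5998, 2079 and 1100 summits. Whole cerebellum was profiled, where Purkinje cells are a minority, so a peak cannot be assigned to Purkinje cells. In such bulk tissue, few cells carrying a peak and weak signal in every cell cannot be told apart. A peak list measures no expression, so the tissue label could not be checked against marker levels. The 30 H3K27ac and IgG samples were not analysed here.

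Purkinje cells are the GABAergic output neurons of the cerebellar cortex. At their parallel fiber synapses, the glutamate receptor mGluR1 activates the G protein Gq and phospholipase C beta, which makes IP3 and diacylglycerol. IP3 releases calcium from the endoplasmic reticulum through the IP3 receptor, and pumps and buffers then restore resting calcium. CIC is a DNA-binding transcriptional repressor that forms a complex with ATXN1, and expanded ATXN1 causes degeneration of these cells in spinocerebellar ataxia type 1.

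The strongest summits within the windows of the 5 genes with a peak in 2 or 3 lists are shown first, because the results turn on these sites. Each sequence below was read from the plus strand of GRCm38, 5′ to 3′, and spans 50 bp on either side of a summit. Capitals mark the summit base. Inpp5a was taken at chr7:139388804-139388904, Atp2b2 (a minus-strand gene) at chr6:113933400-113933500, Shank1 at chr7:44305430-44305530, Plcb4 at chr2:135836634-135836734 and Rgs8 at chr1:153679236-153679336. The Rgs8 summit is from the 154Q list and the others are from the WT list.
Inpp5a: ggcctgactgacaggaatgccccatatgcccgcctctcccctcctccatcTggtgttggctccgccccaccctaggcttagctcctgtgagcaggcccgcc
Atp2b2: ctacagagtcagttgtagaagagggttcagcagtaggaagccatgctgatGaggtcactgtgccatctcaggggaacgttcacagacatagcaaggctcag
Shank1: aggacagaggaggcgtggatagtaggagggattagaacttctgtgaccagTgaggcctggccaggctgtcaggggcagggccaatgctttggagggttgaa
Plcb4: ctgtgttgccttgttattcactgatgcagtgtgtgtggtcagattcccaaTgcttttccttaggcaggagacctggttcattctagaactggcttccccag
Rgs8: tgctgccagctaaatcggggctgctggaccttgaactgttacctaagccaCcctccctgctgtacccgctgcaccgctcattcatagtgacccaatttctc
Their GC content ran from 48.5% in Plcb4 to 66.3% in Inpp5a.

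In the WT list 8 of the 34 genes had a peak (23.5%), against 16.4% of all protein-coding genes. The 154Q list held a peak at 6 of them (17.6%), against 6.96% of all genes, and the 154Q[V591A;S602D] list at 2 (5.88%), against 3.77%. Inpp5a and Rgs8 had a peak in all 3 lists, as did 2.37% of all genes. Plcb4, Atp2b2 and Shank1 had peaks in WT and 154Q alone (3.28% of all genes). Gnaq, Rora and Ebf2 had a peak in WT alone (9.86%), and Plcb3 in 154Q alone (1.22%). At least 1 list held a peak at 9 of the 34 genes, against 18.1% of all genes. The other 25 had none, among them the genes whose products are most often used to mark Purkinje cells.

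**Figure D1:**
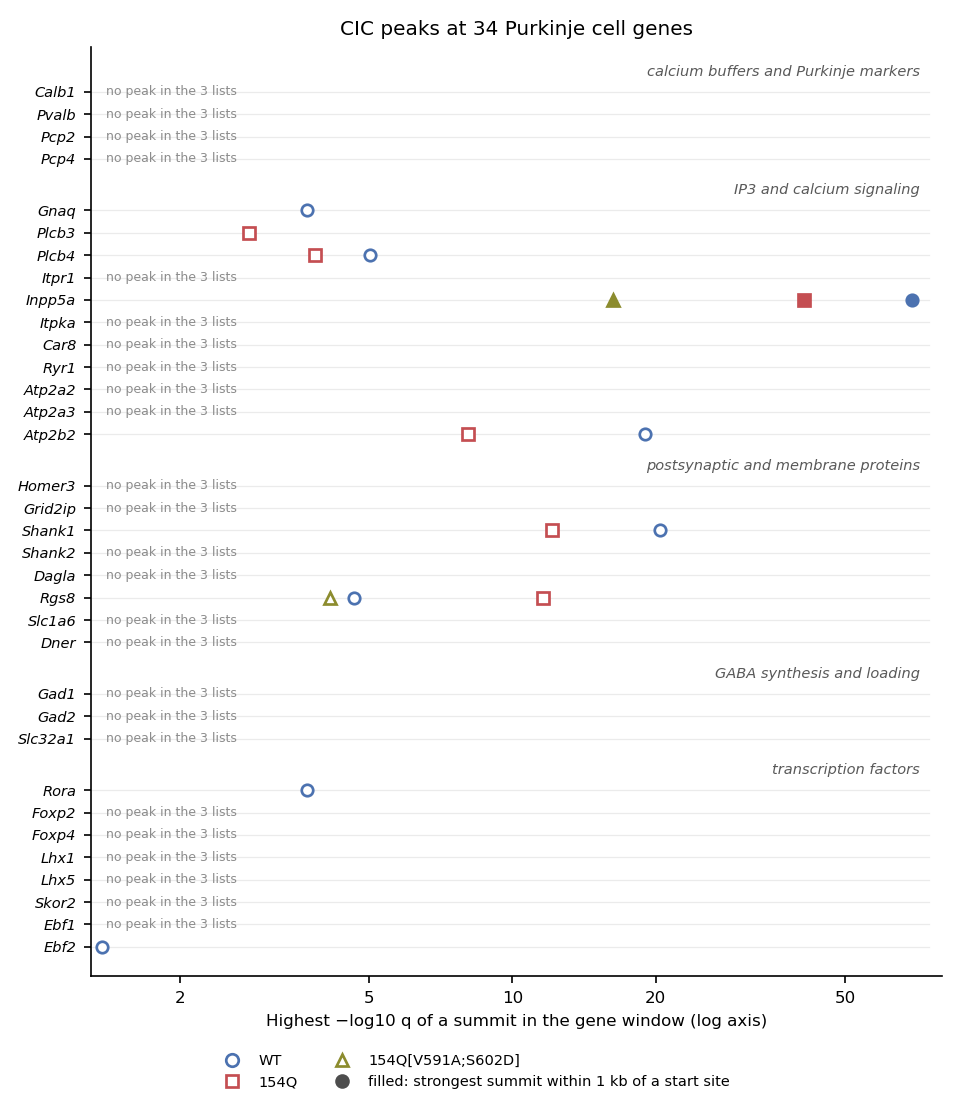
The highest −log10 q of a summit in the window of each of the 34 genes is plotted on a log axis, with 1 symbol per list and genes grouped by role. Inpp5a lies to the right of all other genes in each list, at 69.2, 41.0 and 16.3, and 25 genes have no peak.

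Long genes offer more room for a peak, and these genes are long. Their median length was 53.9 kb against 17.4 kb over all protein-coding genes. Over all genes, the share with a WT peak rose from 6.29% in the shortest length decile to 27% in the longest. The longest decile held 12 of the 34 genes, and 6 of these 12 had a WT peak, while 3 had a 154Q peak where the decile's share was 12.1%. The 9 genes with a peak had a median length of 198 kb and the 25 without one 48.7 kb. At the length decile shares of all genes, 6.99 of the 34 would carry a WT peak, 3.02 a 154Q peak and 1.54 a peak in 154Q[V591A;S602D]. The observed count of 8 in WT was close to that number, and the count of 6 in 154Q was the farthest above it. The 154Q count was 5 with the strongest summit of each peak alone, against 3.01 expected. It was 4 with each summit given to its nearest start site (2.69 expected) and 4 with the gene body alone (1.95).

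**Figure D2:**
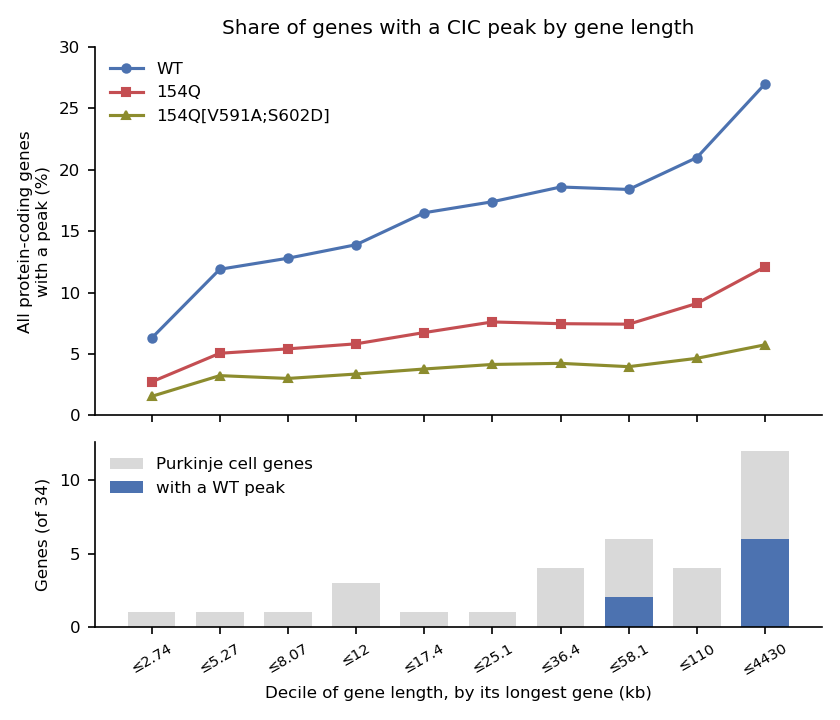
The upper panel plots the percentage of all protein-coding genes with a CIC peak by decile of gene length for each list, and the lower panel counts the 34 Purkinje cell genes in each decile, with those carrying a WT peak in blue. The WT share climbs from 6.29% to 27%, and 6 of the 12 genes in the longest decile have a WT peak.

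Where in the gene the peaks lay was examined next. A promoter peak, with a summit within 1 kb of a start site of the gene, was found at 2 genes in WT (Inpp5a and Atp2b2), against 11.7% of all genes. Inpp5a alone had a promoter peak in 154Q, against 4.88% of all genes, and in 154Q[V591A;S602D], against 2.82%. Promoter peaks were more common where GC content was high, from 0.456% of all genes in the lowest GC decile to 21.2% in the highest in WT, so the expected number was also taken at equal GC content around the 5′ end of the gene. That number was 5.47 for the WT list, 2.3 for 154Q and 1.32 for 154Q[V591A;S602D], above the 2, 1 and 1 genes found. A count of 1 gene cannot be set apart from the expected number. With promoters of up to 2 kb the 154Q count was 2, against 2.45 expected.

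Peaks over 1 kb from every start site of the gene were counted separately. All 8 genes with a WT peak had such a peak, against 6.19% of all genes and 3.55 genes expected at equal length. In 154Q there were 5 genes, against 2.44% of all genes and 1.46 expected, and in 154Q[V591A;S602D] Rgs8 alone, against 1.08% and 0.602 expected, which 1 gene cannot set apart from the share of all genes. The WT count was 2 at equal list length, and the 154Q count was 3 when each summit was given to its nearest start site. No expected number away from promoters was taken under these settings, so 3.55 and 1.46 do not apply to these counts. The share of all genes with a peak anywhere in the window also fell, to 4.34% in WT and 5.85% in 154Q. Counted per length of DNA over whole windows, with each peak placed at its strongest summit, these genes held 2.92 WT peaks per Mb against 3.49 over all protein-coding genes, 1.36 against 1.29 in 154Q and 0.389 against 0.689 in 154Q[V591A;S602D]. Outside all promoters the densities were 2.59 against 1.38 peaks per Mb in WT, 0.996 against 0.427 in 154Q and 0.199 against 0.194 in 154Q[V591A;S602D]. Atp2b2 carried 3 of the 5 such peaks in 154Q. Without it the 154Q density was 0.423 peaks per Mb by strongest summits and 0.635 with a peak counted by any of its summits, which adds Shank1 and gives 0.432 over all genes. The WT density without Atp2b2 was 2.12 peaks per Mb by strongest summits. No test of these differences was run, since the genes were chosen with results of these data known.

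**Figure D3:**
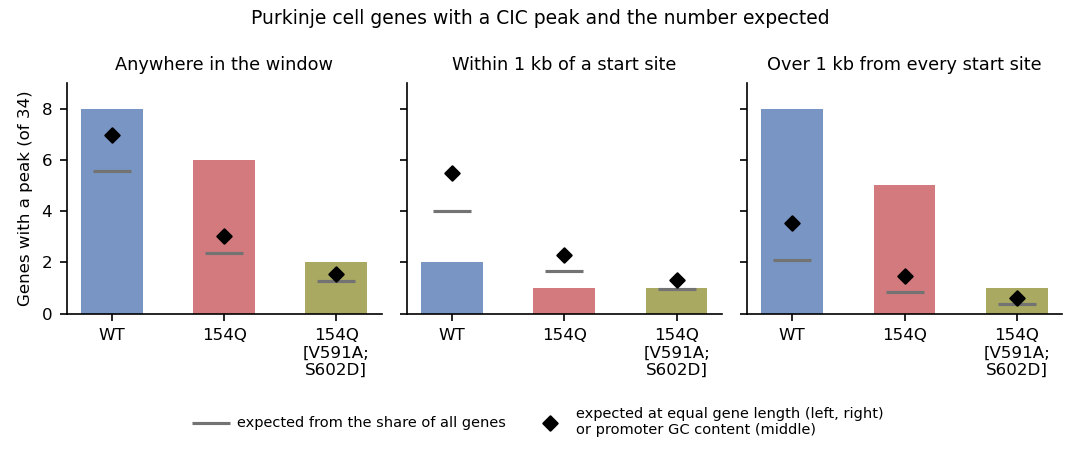
Bars count the genes of 34 with a peak anywhere in the window (left), within 1 kb of a start site (middle) or over 1 kb from every start site (right) in each list. Grey lines mark the number expected from the share of all genes and diamonds that expected at equal gene length or GC content. Promoter counts lie below the diamonds in each list and counts away from promoters above them. In 154Q[V591A;S602D] each of these counts is 1 gene, against 1.32 and 0.602 expected, and cannot be set apart from the expected number.

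The calcium buffers and marker genes had no peak in any list. Calb1 encodes the buffer calbindin, Pvalb parvalbumin, Pcp2 a G protein regulator found almost only in Purkinje cells and retinal bipolar cells, and Pcp4 a calmodulin regulator. At equal length, 0.624 of these 4 genes would carry a WT peak, so their lack of peaks is close to the expected number. Their nearest WT summit lay 107 kb from Pcp2, 200 kb from Pvalb, 255 kb from Calb1 and 267 kb from Pcp4.

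Among the 11 genes of IP3 and calcium signaling, 4 had a peak in WT (2.51 expected at equal length), 4 in 154Q (1.1) and 1 in 154Q[V591A;S602D] (0.548). Inpp5a encodes the phosphatase that removes the 5-phosphate of IP3 and so ends its calcium signal. It carried the strongest peak of the whole set in each list. The strongest summit lay 255 bp upstream of the gene (chr7:139389109-139579652, plus strand) in WT, 252 bp upstream in 154Q and 253 bp upstream in 154Q[V591A;S602D]. Its −log10 q was 69.2, 41.0 and 16.3, which placed the peak at rank 35 of 4588, 60 of 1690 and 54 of 918.

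The depth behind this site could be recovered for WT and 154Q[V591A;S602D]. In WT, 139 fragments covered the summit (exact 95% Poisson interval 117 to 164) over a control background of 17.5, and in 154Q[V591A;S602D] 64 fragments (49.3 to 81.7) over 14.6. Such intervals cover counting error in the merged CIC library alone. The ratio of fragments to background was 7.94 (6.68 to 9.38) in WT and 4.38 (3.38 to 5.6) in 154Q[V591A;S602D]. Neither the spread between animals nor error in the shared control enters these intervals, so they do not compare the genotypes. The deposited fold enrichment was 7.55 and 4.16, a ratio of 1.82. Over the 572 sites found in both lists within 200 bp, the same ratio had a median of 1.22, and 63 sites lay above that of Inpp5a. The 154Q list gives no fold enrichment.

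The wider window around the Inpp5a summit, at chr7:139388754-139388954, shows the sequence upstream of the start site. Capitals mark the GC box letters GCCCCGCC, here on the minus strand.
Inpp5a promoter: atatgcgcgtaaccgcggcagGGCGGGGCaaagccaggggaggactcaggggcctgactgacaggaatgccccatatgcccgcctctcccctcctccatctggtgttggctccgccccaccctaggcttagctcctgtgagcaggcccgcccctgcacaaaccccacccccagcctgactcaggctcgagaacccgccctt
This box began 79 bases before the WT summit. A GC box lay within 100 bp of the strongest summit in 15.3% of all WT peaks and within 100 bp of the 5′ end in 15.7% of protein-coding genes.

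A second, weak WT peak of Inpp5a lay in intron 1 of 15, with its summit at chr7:139436448 and a −log10 q of 1.45. Only 20 fragments (12.2 to 30.9) covered it, over a background of 7.02. It is shown at chr7:139436348-139436548 because it holds the octamers TGAATGAA and TGAATGGA, which overlap and are marked by capitals.
Inpp5a intron: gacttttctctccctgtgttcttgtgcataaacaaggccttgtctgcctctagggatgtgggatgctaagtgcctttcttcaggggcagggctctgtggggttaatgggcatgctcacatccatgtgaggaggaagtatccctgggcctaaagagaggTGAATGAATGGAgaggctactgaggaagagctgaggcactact
The octamers began 58 and 62 bases after the summit.

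Atp2b2 encodes the plasma membrane calcium pump PMCA2, which exports calcium from Purkinje cells. Its gene (chr6:113743831-114042613, minus strand) held 4 WT peaks and 3 154Q peaks, more than any other gene of the set. The strongest WT summit, at chr6:113933450 in intron 2 of 21, had a −log10 q of 19 and rank 304. It had 54 fragments (40.6 to 70.5) over a background of 9.36. The 154Q summit there lay 45 bp away with a −log10 q of 1.83. The WT summit was 1231 bp from a start site inside the gene, just past the promoter limit of 1 kb.

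Intron 3 of Atp2b2 held a cluster of summits in both lists, between chr6:113860663 and chr6:113861334. Its highest −log10 q was 9.54 in WT (rank 878) and 8.07 in 154Q (rank 367). The order of the intron sites thus differed between the lists, with intron 2 highest in WT and intron 3 highest in 154Q. A WT summit at chr6:113891520, with a −log10 q of 1.78, lay in the UTR 19 bp from another internal start site and made the only promoter peak besides Inpp5a. An isolated 154Q summit in intron 3 had a −log10 q of 1.41. The 154Q[V591A;S602D] list held no Atp2b2 peak.

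Gnaq and the phospholipases lie at the head of the pathway. Gnaq, the alpha subunit of Gq (chr19:16132831-16387463), had WT summits in intron 1, 5.38 and 34.5 kb from the 5′ end, with −log10 q of 3.32 and 3.7. The latter had 24 fragments (15.4 to 35.7) over a background of 6.59, and its window at chr19:16167316-16167416 held the octamer TGAATGAA, in capitals, 35 bases after the summit.
Gnaq intron 1: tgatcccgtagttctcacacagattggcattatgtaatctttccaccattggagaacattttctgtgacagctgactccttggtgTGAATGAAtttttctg
No Gnaq peak was present in the 154Q or 154Q[V591A;S602D] list.

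Plcb4 encodes phospholipase C beta 4, the isoform that serves mGluR1 in many Purkinje cells (chr2:135659011-136014593). Its WT summits lay in intron 2, 166 and 178 kb from the 5′ end, with −log10 q of 2.21 and 5.01. Its 154Q summit lay elsewhere, 19.6 kb from the 5′ end, with a −log10 q of 3.84. Shared presence of a Plcb4 peak in WT and 154Q therefore does not mean a shared site.

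Plcb3 encodes phospholipase C beta 3 (chr19:6952325-6976470, minus strand). Its 154Q summit, at chr19:6974852 with a −log10 q of 2.8, was 116 bp from the start site of the neighboring gene Ppp1r14b, which encodes a phosphatase inhibitor. It lay in the Plcb3 gene body only through transcripts outside the GENCODE basic set, as did the 154Q summit of Plcb4. The peak cannot be assigned to either Plcb3 or Ppp1r14b. A WT summit with a −log10 q of 2.19 lay 0.68 kb downstream of Plcb3 and so was not counted.

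The other 6 genes of this role had no peak. They are Itpr1, the IP3 receptor of Purkinje cells, Itpka, which phosphorylates IP3, Car8, which lowers the affinity of the receptor for IP3, Ryr1, a ryanodine receptor, and the endoplasmic reticulum calcium pumps Atp2a2 and Atp2a3. Itpr1 is 338 kb long and Ryr1 122 kb, in the decile in which 27% of all genes had a WT peak.

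**Figure D4:**
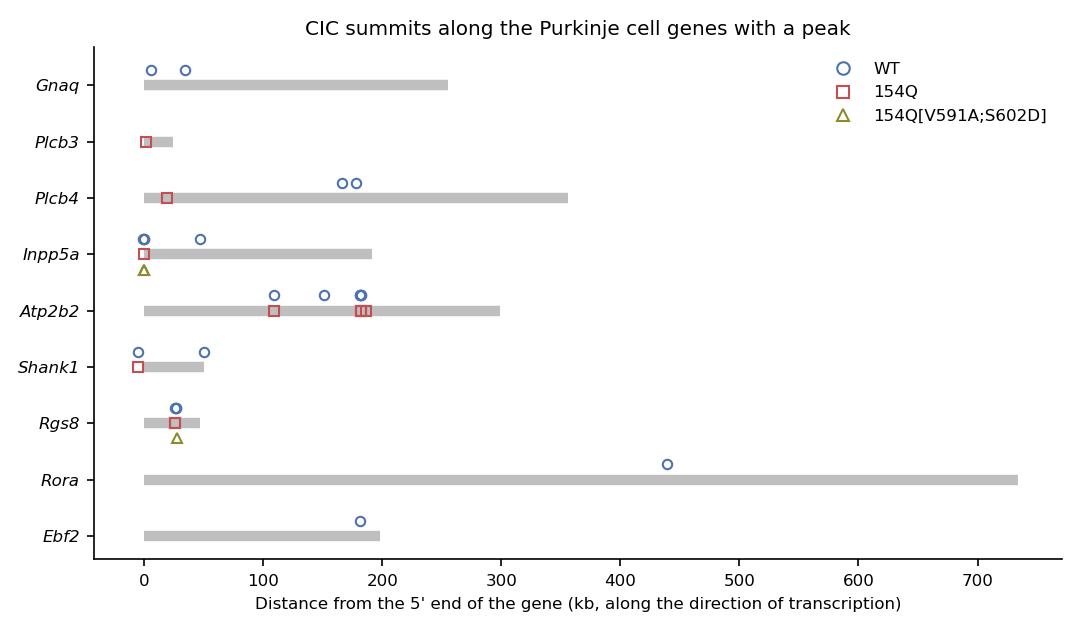
Each grey bar is the body of a gene with a peak, drawn to scale in kb from its 5′ end, and each symbol is a summit of the list it stands for. The strongest Inpp5a summits of the 3 lists stand at the 5′ end and a weak WT summit 47.3 kb into the gene, whereas the summits of Atp2b2, Plcb4, Rora and Ebf2 lie 19.6 to 439 kb into the gene.

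Of the 8 postsynaptic and membrane protein genes, Shank1 and Rgs8 had peaks in WT (1.63 expected at equal length) and in 154Q (0.69), and Rgs8 had one in 154Q[V591A;S602D] (0.359). Rgs8 encodes a regulator of G protein signaling that shortens Gq signals (chr1:153653025-153700323). All its summits lay in intron 5 of 6. The highest −log10 q was 4.65 in WT (rank 1955), 11.6 in 154Q (rank 252) and 4.14 in 154Q[V591A;S602D] (rank 328). Rgs8 was the only gene of the set whose −log10 q was higher in 154Q than in WT among those with a peak in both, on a scale that also moves with the depth of each merged library.

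The Rgs8 summits were not at a single site. The strongest WT and 154Q summits lay 53 bp apart at chr1:153679339 and chr1:153679286, and another WT peak had its summit at chr1:153679911. The 154Q[V591A;S602D] summit was at chr1:153680997, farther along the intron, with 23 fragments (14.6 to 34.5) over a background of 5.28. A lower 154Q summit of the same peak, at chr1:153679086 with a −log10 q of 6.21, had the octamer TCAATGGA, in capitals, starting 6 bases before it. Its window was chr1:153679036-153679136.
Rgs8 intron 5: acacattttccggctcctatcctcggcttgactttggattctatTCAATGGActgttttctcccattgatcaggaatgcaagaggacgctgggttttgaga

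Shank1 encodes a scaffold of the postsynaptic density (chr7:44310253-44360572). A summit lay 4773 bp upstream in WT, with a −log10 q of 20.4 in a peak of rank 104, and 4776 bp upstream in 154Q, with a −log10 q of 12.1 in a peak of rank 116. These summits are just inside the 5 kb limit, and in both lists the strongest summit of the peak, which sets its rank, lay outside the window. Placed by strongest summits alone, the upstream peak would not count for Shank1 in either list. They are nearer to Clec11a, a gene for a secreted lectin, whose start site was 1422 bp from the WT summit. The 154Q[V591A;S602D] list had a summit at chr7:44305048 with a −log10 q of 14.0 and rank 67, which was 205 bp beyond the limit and so not counted. A second WT peak, with a −log10 q of 9.63, lay in the Shank1 UTR, a stretch shared with the window of 1700008O03Rik.

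No peak was found in the other 6 genes of this role. They were Homer3, an adaptor that ties mGluR1 to the IP3 receptor, Grid2ip, which binds the glutamate receptor delta 2, the scaffold Shank2, Dagla, which makes the endocannabinoid 2-arachidonoylglycerol, the glutamate transporter Slc1a6 (EAAT4) and the Notch ligand Dner. Shank2 (423 kb) and Dner (326 kb) were in the longest decile.

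The GABA genes Gad1 and Gad2, which encode the synthetic enzymes, and Slc32a1, the vesicular GABA transporter, had no peak in any list (0.512 expected in WT). Of the 8 transcription factors, Rora and Ebf2 had a peak in WT (1.71 expected) and none had one in 154Q (0.746) or 154Q[V591A;S602D] (0.373). Rora encodes an orphan receptor needed for Purkinje cell maturation (chr9:68653786-69388246) and is the longest gene of the set, at 734 kb. Its WT summit lay in intron 1, 439 kb from the 5′ end, with a −log10 q of 3.7 and 24 fragments (15.4 to 35.7) over a background of 6.59.

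Ebf2 marks a subset of Purkinje cells (chr14:67233292-67430918). Its WT summit lay in a coding exon 181 kb from the 5′ end, with a −log10 q of 1.37, the lowest of the WT summits in the set. It had 19 fragments (11.4 to 29.7) over a background of 6.59, the smallest pileup in the WT list. Foxp2, Foxp4, Lhx1, Lhx5, Skor2 and Ebf1, which are factors of Purkinje cell development, had no peak. Foxp2 is 541 kb and Ebf1 391 kb long. The WT summit nearest to Lhx1 lay 4.73 kb downstream of the gene, and the other 24 genes without a peak in any list had no WT summit within 10 kb.

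**Figure D5:**
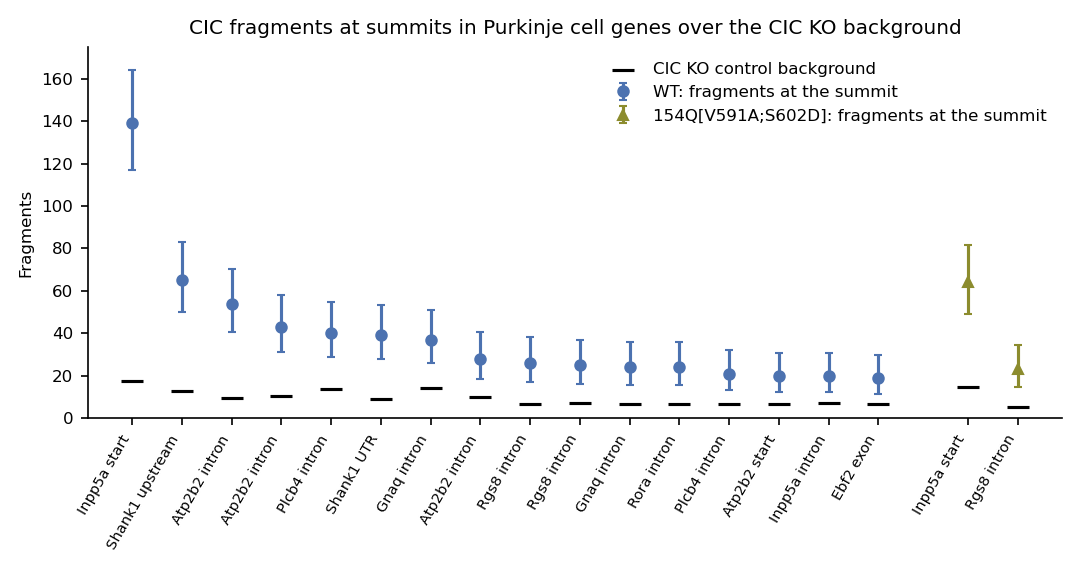
The number of CIC fragments at the strongest summit of each peak, and at the upstream Shank1 summit, is plotted with its exact 95% Poisson interval for WT and 154Q[V591A;S602D]. Black lines mark the CIC KO background. Inpp5a stands highest in both lists, at 139 and 64 fragments, and the weakest WT summit, at Ebf2, has 19.

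The CIC octamers TGAATGAA, TGAATGGA, TCAATGAA and TCAATGGA were searched on both strands within 50 bp of each summit. One was found at 1 of 21 WT summits, 1 of 11 154Q summits and 0 of 3 154Q[V591A;S602D] summits of these genes. Counting the strongest summit of each peak alone, it was 1 of 15, 0 of 7 and 0 of 2, against 2.33%, 6.57% and 3.38% of all peaks, while 1.05% of the 5′ ends of all protein-coding genes held an octamer. The octamers in the set were those of Gnaq and Rgs8 given above, and none was at the Inpp5a promoter, within 100 bp of its strongest summit. Such matches describe letters in these windows and not bound sites.

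The lists differ in length, so they were also compared at 918 peaks each, the number in the 154Q[V591A;S602D] list. The highest-ranked WT peaks then covered 3 of the 34 genes (Inpp5a, Atp2b2 and Shank1), against 4.34% of all genes. The 154Q peaks covered 5 (Plcb4, Inpp5a, Atp2b2, Shank1 and Rgs8), against 4.12%, and the 154Q[V591A;S602D] peaks 2. At equal length of genes the expected numbers were 1.75, 1.81 and 1.54. Ranks move with the depth of each merged library, so these counts describe the lists and not a difference between genotypes. The count in 154Q[V591A;S602D] leaves out the Shank1 summit of rank 67 that lay 205 bp beyond the window.

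Other gene lists were counted the same way. Of 20 other Purkinje cell genes, 2 had a WT peak (3.85 expected at equal length), 0 a 154Q peak (1.67) and 2 an 154Q[V591A;S602D] peak (0.863). Each count of 2 fell to 1 at a q below 0.001, that in WT also at a q below 0.01, with the gene body alone and at equal list length, and that in 154Q[V591A;S602D] also with the repeat filter. Of 33 other genes from mGluR1 to calcium, 15 had a WT peak (7.49), 5 a 154Q peak (3.29) and 5 an 154Q[V591A;S602D] peak (1.64). The 154Q[V591A;S602D] count fell to 3 at a q below 0.01 and to 0 at a q below 0.001, and the WT count to 2 at equal list length. The share of all genes with a peak also fell, from 3.77% to 2.69% and 1.93% in 154Q[V591A;S602D]. In WT it fell from 16.4% to 4.34%. The lists of 20 and 33 genes share 4 genes. Stim2, a calcium sensor of the endoplasmic reticulum, Rgs7, a further G protein regulator, and Dlg4, the scaffold PSD-95, had peaks in all 3 lists. Their highest −log10 q was 10.1, 6.57 and 8.6 in WT, 5.18, 7.45 and 5.65 in 154Q and 1.95, 2.33 and 2.22 in 154Q[V591A;S602D].

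Markers of the other cerebellar cell types were set beside these counts, over the full peak lists alone, of which the WT list is the longest. Of 15 granule neuron markers, 11 had a WT peak (2.49 expected at equal length), 4 a 154Q peak (1.06) and 5 an 154Q[V591A;S602D] peak (0.587), with Cbln3, Fat2 and Zic2 in all 3 lists. None of 10 interneuron and Golgi cell, 10 Bergmann glia and astrocyte or 10 oligodendrocyte lineage markers had a peak in any list, where 2.1, 1.81 and 1.62 were expected in WT. Of 9 microglia and endothelial markers, 2 had a WT peak (1.54 expected at equal length), 1 a 154Q peak (0.665) and 1 an 154Q[V591A;S602D] peak (0.351), with Cx3cr1 in each. The Cx3cr1 summits were weak, with −log10 q of 1.79, 1.44 and 1.53, and lay 44039 bp from its start site in WT but 97340 and 97262 bp in 154Q and 154Q[V591A;S602D]. Granule neurons are the most numerous cells of the cerebellum, and the part of cell number in the difference between granule and Purkinje cell genes was not tested.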

How the data were processed

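CUT&RUN peak lists of CIC from mouse cerebellum were analysed. The authors trimmed reads with Trimmomatic 0.36, aligned them to mm10 (GRCm38) with Bowtie2 2.3.4.1, kept fragments under 120 bp, merged the replicates of each genotype and called peaks with MACS3 at a q-value of 0.05 over merged CIC KO libraries. SAMtools 1.10 and bedtools 2.29.1 are also named in the submitters' processing notes. In the lists deposited for WT and 154Q[V591A;S602D], each summit has a fold enrichment (ratio of pileup to control background, each plus 1), a −log10 p-value and a −log10 q-value. For 154Q the deposited list holds only the summit base and its −log10 q, and repeat peaks had been removed from it by the authors. Depth per animal is not given in these lists, so fragments at a summit stand for depth.

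Gene bodies were the gene records of the GENCODE M21 basic set on chromosomes 1 to 19, X and Y, which can reach beyond the basic transcripts. Start sites were those of the basic transcripts, and exon or intron was read from all transcripts. Summits, and not peak intervals, were assigned to genes, and 1 summit could count for several genes. The expected count of genes was the sum, over the 34 genes, of the share of all protein-coding genes with a peak in the same decile of gene length, or of GC content within 500 bp of the 5′ end. Fold enrichment and −log10 p were solved together for pileup and background, within 0.001, for 99.8% of WT and 99.6% of 154Q[V591A;S602D] summits. Ranks order peaks by −log10 q. Intervals are exact Poisson intervals at 95%. No set test was run. Every gene with a peak was named, and sequences were printed for genes with a peak in 2 or 3 lists and for windows with an octamer. Other genes were named only where they share such a window or belong to a counted list with a peak in all 3 lists. The 34 genes and the other lists were chosen with earlier results of these data known. The scripts were tested on simulated data. Python 3.11.15, numpy 2.4.6, pandas 2.3.3, scipy 1.17.1 and matplotlib 3.10.9 were used.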

Additional observations from a re-analysis of the deposited data

How the results depend on the processing

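Alternatives were stricter q thresholds, a repeat filter on all lists, the strongest summit of each peak alone, other gene windows, assignment to the nearest start site, other promoter distances, finer length and GC classes and equal list lengths. Start sites of all GENCODE transcripts, and densities with a peak counted by any of its summits, were added after seeing the data. Of the 91 counts recomputed for the 34 genes and their octamers, 78 stayed within 1.5 times the reported count. The WT promoter count was 1 at a q below 0.01 and below 0.001, with the gene body alone and at equal list length, where the Atp2b2 start site or the upstream summits of Inpp5a were not counted. With the gene body alone the promoter count was 0 in 154Q and 0 in 154Q[V591A;S602D], whose count of genes with a peak fell to 1, because the Inpp5a summits lie upstream of the gene. In 154Q the promoter count was 2 with promoters of up to 2 kb and 2 with the start sites of all transcripts, which placed the Plcb3 summit in a promoter. The count away from promoters was 3 in 154Q with the nearest start site and 2 in 154Q[V591A;S602D] with 10 kb upstream, which brings in Shank1. At equal list length, WT had 3 genes with a peak and 2 with one away from promoters. No paired analysis was possible because the authors merged the replicates before calling peaks, and leaving out single animals could not be run for the same reason. The smallest pileups in the lists were 19 and 18 fragments, so weaker sites were not detectable at this depth.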
